A study of Mus musculus with 2 samples.

Results

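The RNA decay and deadenylation machinery was examined as 40 genes, taken by name from the 20250 protein-coding RefSeq genes with an FPKM in the RNA-seq table. FPKM relates the fragments of a transcript to its length and to the depth of the library. The 40 genes were set in 5 groups by what their proteins do: 11 exosome genes, 12 deadenylase genes, 5 decapping and 5′ exonuclease genes, 7 nonsense-mediated decay genes and 5 genes whose proteins bind AU-rich elements. The rule uses gene function and no measured value, but the list was drawn up with earlier results of these data known. RNA-seq was made from 1 library of *Ebf1* -/- pre-pro-B cells and 1 library of *Rag2* -/- pro-B cells, both C57BL/6, each sequenced to about 90000000 single-end reads of 97 bp after ribosomal RNA had been depleted from RNA with an integrity number of 9.9. The pre-pro-B cells came from livers of female embryos and grew on OP-9 stromal cells with Il-7 (5 ng/mL), Scf (10 ng/mL) and Flt3l (10 ng/mL). The pro-B cells came from bone marrow of adult males and grew on the same stromal cells with Il-7 (5 ng/mL). Cell type, genotype, sex, age, tissue of origin and cytokines therefore cannot be told apart in any value below, and the sources do not say how many animals or cultures each library represents. With 1 library per cell type there is no replicate spread, so differences are given as sizes without a test.

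Eukaryotic mRNAs are usually degraded after their poly(A) tail has been shortened. The Pan2-Pan3 complex and the Ccr4-Not complex remove the tail, after which the transcript is either decapped and digested from its 5′ end by Xrn1 or degraded from its 3′ end by the exosome. Nonsense-mediated decay removes transcripts with early stop codons, and proteins that bind AU-rich stretches of 3′ untranslated regions bring short-lived mRNAs to this machinery or shield them from it. In developing lymphocytes, the Zfp36 family of AU-rich element binding proteins is known to restrain proliferation.

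The libraries carried the markers of their labels. Of 14 pro-B marker genes, 13 rose by 2-fold or more from pre-pro-B to pro-B cells, and their FPKM summed to 135 in the former and 4310 in the latter. Of 9 progenitor markers with enough signal, 8 fell by 2-fold or more, *Flt3* and *Cd34* among them, as did all 6 such T cell markers. Genes of stromal cells were low in both libraries, apart from *Pdgfrb* in pre-pro-B cells. The 16 listed, *Pdgfrb* among them, summed to 27.9 FPKM (pre-pro-B) and 22.3 FPKM (pro-B). The stromal list did not move one way: of its 9 genes tested, 4 rose and 2 fell, with a median log2 ratio of 0.84. The matrix genes *Col1a2* (0.707 to 2.82), *Col6a1* (1.17 to 4.05) and *Fn1* (1.16 to 5.16) and the chemokine *Cxcl12* (0.618 to 2.92) rose in pro-B cells, while the receptor *Pdgfrb* (15.9 to 0.377) fell and *Thy1*, also a T cell marker, was 5.95 in pre-pro-B and listed at 0 in pro-B cells. Of the 16, 3 were at 0 in pre-pro-B and 3 in pro-B cells, *Dcn*, a collagen-binding matrix proteoglycan, and *Postn*, a matrix protein, in both. *Ebf1* was 64.0 FPKM in the *Ebf1* -/- cells against 273, and *Rag2* was 22.9 in the *Rag2* -/- cells against 34.5, so neither transcript was absent from its null cells, and an FPKM over the whole transcript does not show which part of the gene the reads came from. The part of stromal or T lineage transcripts in the values below was not tested.

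All 40 decay genes were expressed in both cell types. Each had an FPKM of at least 1 in both libraries, which was so for 8852 of the 10528 genes that passed this limit in at least 1 library and are called genes tested here. The 40 genes ranged from 3.02 (*Dcp1b*) to 357 (*Pan3*) in pre-pro-B cells and from 1.92 (*Dcp1b*) to 169 (*Cnot2*) in pro-B cells. Their median level stood at percentile 73.1 of all genes tested in pre-pro-B and at percentile 72.4 in pro-B cells. Together they made up 0.626% of the FPKM of all protein-coding genes in the pre-pro-B library and 0.489% in the pro-B library. *Pan3* alone gave 18.4% of the summed FPKM of the 40 genes in pre-pro-B and 4.61% in pro-B cells. Without *Pan3* the sums were 1584 and 1575, nearly equal. FPKM is a concentration within each library, so fewer cells of a type and less RNA per cell cannot be told apart.

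**Figure D1:**
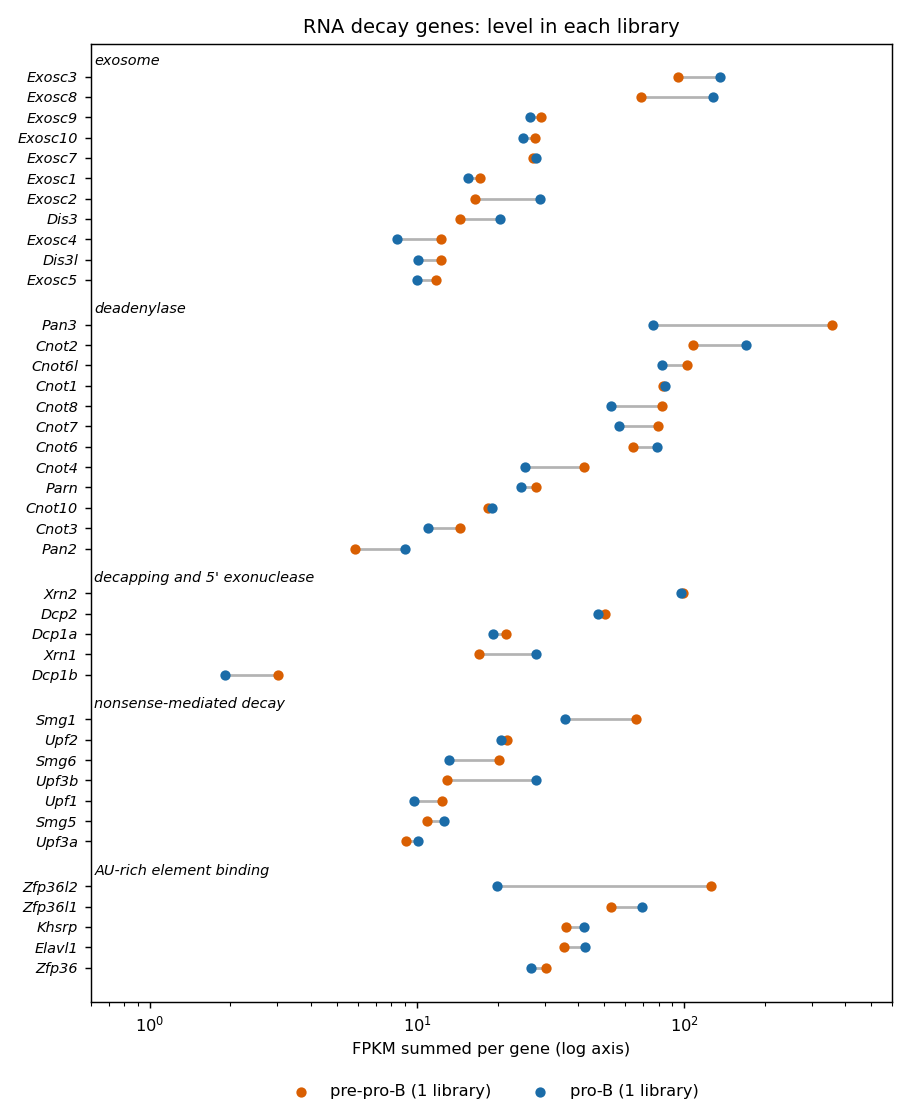
FPKM summed per gene (log axis) of the 40 RNA decay genes in the pre-pro-B library (orange) and the pro-B library (blue), 1 library each, by group and sorted by the pre-pro-B level. The points of most genes lie close together, while Pan3 (357 and 76.1) and Zfp36l2 (126 and 19.8) are joined by the longest lines.

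Most genes of the decay machinery stayed within 2-fold between the cell types. A gene was counted as higher or lower where the pro-B FPKM divided by the pre-pro-B FPKM, after 1 had been added to both, gave at least a 2-fold change. By this rule 3 of 40 decay genes (7.5%) differed, against 31.3% of all genes tested, and since earlier results were known when the list was drawn up, the comparison is a description. *Upf3b* rose in pro-B cells, 1 of 40 where 12.2% of all genes rose. *Pan3* and *Zfp36l2* fell, 2 of 40 where 19.1% of all genes fell. Among the 8852 genes with an FPKM of at least 1 in both libraries, which low values affect less, 21.6% passed 2-fold. At 1.5-fold, 10 of the 40 genes passed, 5 in each direction, against 49.9% of all genes tested. The median size of the log2 ratio, whatever its sign, was 0.31 over the decay genes and 0.58 over all genes tested. The median signed log2 ratio was -0.11 over the decay genes and -0.14 over all genes tested, with 17 decay genes above 0 and 23 below. That split depends on the scaling of the libraries. Scaling the libraries to equal totals, as transcript shares (TPM) do, shifts the FPKM ratio by -0.12 on the log2 scale and gives 14 above and 26 below, while scaling by the median ratio gives 20 and 20.

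**Figure D2:**
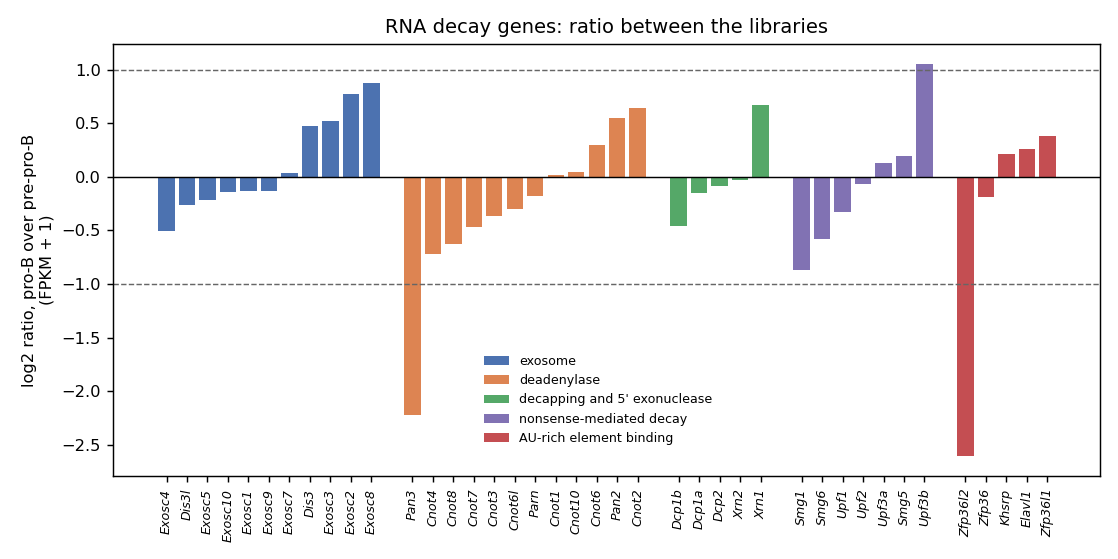
Log2 ratio, pro-B over pre-pro-B, of the FPKM + 1 for the 40 RNA decay genes, coloured and sorted within the 5 groups. Dashed lines mark 2-fold, and of the 40 bars Zfp36l2 (-2.61), Pan3 (-2.22) and Upf3b (1.06) pass them.

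**Figure D3:**
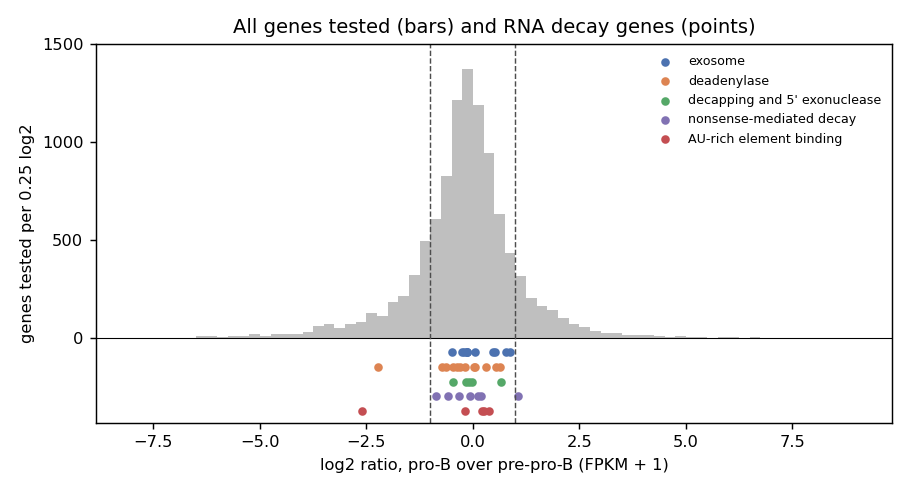
Distribution of the same log2 ratio over the 10528 genes tested (grey bars, number of genes per 0.25 log2) with the decay genes as coloured points under it, 1 row per group. The points gather between the dashed 2-fold lines, where 7231 of all genes tested also lie.

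Each transcript also had a 95% interval, which Cuffdiff draws from its own model of the library. For the most abundant transcript of each gene, the intervals of the 2 libraries overlapped for all 40 decay genes, so 0 of 40 were apart, where 4.83% of all genes tested were. They were wide: for 16 of the 40 genes the lower limit was 1 FPKM or less in at least 1 library. Among the 3297 genes tested past 2-fold, 494 had intervals that did not overlap. The intervals carry the model's estimate of the error and no measured replicate spread. The table holds no counts, so the depth behind each value is unknown.

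Of the 2 deadenylase complexes, the one named for Pan2 and Pan3 changed in the gene of its Pan3 subunit. Pan3 binds the poly(A) binding protein and brings the nuclease Pan2 to the tail. *Pan3* (NM_028291, mm9 chr5:148242156-148360077, plus strand) was measured at 357 FPKM in the pre-pro-B library, with an interval from 61.1 to 653, and at 76.1 FPKM in the pro-B library, with an interval from 17.9 to 134. It was 4.69 times as high in pre-pro-B cells. The gene held rank 1 of the 40 in pre-pro-B and rank 8 in pro-B cells, and stood at percentile 99.4 of all genes tested in the former and 91.9 in the latter. *Pan2*, the catalytic subunit, differed in the other direction without passing 2-fold, at 5.83 in pre-pro-B and 9.01 in pro-B cells (log2 ratio 0.55). The FPKM of *Pan3* was 61.3 times that of *Pan2* in the pre-pro-B library and 8.45 times in the pro-B library. The excess of the adaptor transcript over the nuclease transcript was thus present in both libraries and smaller in pro-B cells.

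The genes beside *Pan3* on chromosome 5 were higher in pre-pro-B cells as well. *Flt3*, the receptor for the cytokine Flt3l and a progenitor marker, lies 30.1 kb before *Pan3* and is transcribed from the other strand. Its FPKM was 303 in the pre-pro-B library and 0.916 in the pro-B library. A noncoding transcript between them, *D5Ertd605e* (NR_033625), 7.54 kb before *Pan3*, had an FPKM of 23.3 and 0.117 in the same order. On the other side, *Flt1*, a receptor for vascular endothelial growth factor, lies 13.7 kb past *Pan3* and had an FPKM of 0.123 and 0.00563. The transcripts directly before *Pan3* were therefore both higher in pre-pro-B cells and near 0 in pro-B cells, where *Pan3* itself still stood at 76.1 FPKM. The one behind *Pan3* was near 0 in both. The part of this neighbourhood in the *Pan3* value was not tested. Flt3l, the ligand of Flt3, is listed for the culture of the pre-pro-B cells alone.

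**Figure D4:**
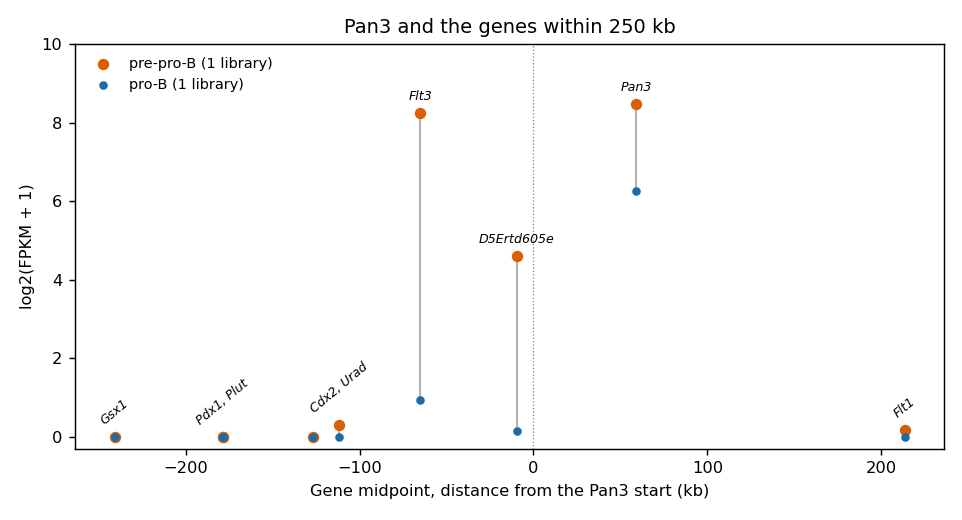
Log2(FPKM + 1) in the pre-pro-B library (orange) and the pro-B library (blue) of Pan3 and every listed gene within 250 kb, placed by the distance of the gene's midpoint from the Pan3 start in kb. Flt3, D5Ertd605e and Pan3 stand above 4 in pre-pro-B cells, and the other genes lie close to 0 in both libraries.

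The promoter of *Pan3* is shown because the gene had the highest level and the widest fall among the deadenylases, in cells that differ in *Ebf1*. The sequence is RefSeq's for build GRCm38.p6, from 250 bases before to 50 bases after the start site, and it matched mm9 exactly at chr5:148241482-148241781 on the plus strand. Capitals mark CCCNNGGG, the core of the palindrome that Ebf1 recognises, which reads the same on both strands.
Pan3: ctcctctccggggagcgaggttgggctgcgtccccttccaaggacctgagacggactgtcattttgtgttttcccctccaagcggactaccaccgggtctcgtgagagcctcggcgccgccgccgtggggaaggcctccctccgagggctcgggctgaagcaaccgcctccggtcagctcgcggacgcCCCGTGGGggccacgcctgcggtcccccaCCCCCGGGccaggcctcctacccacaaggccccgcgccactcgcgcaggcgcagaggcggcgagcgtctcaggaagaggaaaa
The window held 2 copies, beginning at positions -62 and -33 from RefSeq's start site. That site lies at 148241732 of mm9, 424 bases before the start of the deposited *Pan3* transcript, so the window does not reach the transcript that was measured. A copy was present in 17.7% of the 10910 promoter windows of genes tested and in 9 of 42 windows of the decay genes, so such a match is common. It describes these letters and not binding.

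The Ccr4-Not complex, which shortens most poly(A) tails, had 9 of its genes among the 40. None of these passed 2-fold, where 31.3% of all genes tested did. The nucleases of the complex are encoded by 2 pairs of alternative genes, *Cnot6* or *Cnot6l* and *Cnot7* or *Cnot8*. *Cnot6* was 64.0 in pre-pro-B and 79.0 in pro-B cells, and *Cnot6l* was 102 and 82.7. *Cnot7* was 79.3 and 57.0, and *Cnot8* was 82.5 and 53.2 (log2 ratio -0.62). Summed over both genes, the *Cnot6* pair differed little between the libraries (166 and 162), while the *Cnot7* pair was 1.47 times as high in pre-pro-B cells (162 and 110.1). *Cnot1*, the scaffold of the complex, was 83.4 and 84.6. *Cnot2*, a subunit that acts with Cnot3 in linking the complex to its targets, was 108 and 169 (log2 ratio 0.65), the most positive difference of the group and the highest level of all 40 genes in pro-B cells. *Cnot3* was 14.5 and 11.0, so the partners were not at like levels in either library.

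*Cnot4*, a ubiquitin ligase that associates with the complex, was 42.1 in pre-pro-B and 25.3 in pro-B cells (log2 ratio -0.71). Its level was spread over 5 RefSeq transcripts, and the largest, NM_001164412, held 28.4% of the FPKM in pre-pro-B and 44.8% in pro-B cells. That transcript alone was 12.0 and 11.3, so the difference of the gene lay in the others. One of them, NM_001164414, was 7.05 in pre-pro-B and 0.543 in pro-B cells. The gene *Cnot10*, whose protein is a structural subunit, was 18.3 and 19.0. *Parn*, a poly(A)-specific nuclease that also trims noncoding RNAs, was 27.9 and 24.5. The deadenylases summed to 985 FPKM in pre-pro-B and 691 in pro-B cells, and without *Pan3* to 628 and 615, so the difference of the group rested on that gene. The median log2 ratio over the 12 genes was -0.24, beside -0.14 over all genes tested.

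Among the 10 decay genes with several RefSeq transcripts, the one with the highest FPKM was the same in both libraries for each. *Cnot7* shifted in part: NM_001271542 held 0.0178% of its FPKM in pre-pro-B (0.0141 FPKM) and 22.5% in pro-B cells (12.8 FPKM, interval 0 to 34.1). NM_011135, its main transcript, was 79.3 and 44.2 FPKM. The split between transcripts of 1 gene is Cuffdiff's estimate, and the intervals of NM_011135 overlap (4.20 to 154 and 3.37 to 84.9).

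Of the AU-rich element binding genes, 1 of 5 fell, near the 19.1% of all genes tested that fell, and 4 were within 2-fold. *Zfp36l2* encodes a zinc finger protein that binds AU-rich elements and recruits the Ccr4-Not complex. *Zfp36l2* (NM_001001806, mm9 chr17:84583271-84587287, minus strand) stood at 126 FPKM in the pre-pro-B library, with an interval from 26.5 to 224, and at 19.8 FPKM in the pro-B library, with an interval from 3.61 to 35.4. The pre-pro-B level was 6.34 times the pro-B level. This was the widest difference among the 40 genes (log2 ratio -2.61), and the gene moved from rank 2 to rank 27 of the 40. Its nearest neighbour *Thada*, 2.11 kb away, was 12.4 and 10.4, within 2-fold.

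The other members of the family stayed within 2-fold. *Zfp36*, also known as tristetraprolin, was 30.5 in pre-pro-B and 26.6 in pro-B cells. *Zfp36l1* was 53.3 and 69.6, on the opposite side of 0 (log2 ratio 0.38). *Zfp36l2* gave 60.0% of the summed FPKM of the 3 genes in pre-pro-B and 17.1% in pro-B cells, and *Zfp36l1* gave 25.5% and 60.0%. The leading member of the family was thus *Zfp36l2* in the first library and *Zfp36l1* in the second, while the family sum went from 209 to 116. *Elavl1*, also known as HuR, which protects AU-rich mRNAs from decay, was 35.3 and 42.3. *Khsrp*, which promotes their decay, was 36.1 and 42.2. The sum of the 5 genes was 281 and 200.5, and without *Zfp36l2* it was 155 and 181, so the sign of the group's difference turned on that gene. Its median log2 ratio was 0.22, positive although its sum was lower in pro-B cells.

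AU-rich elements were then searched for in the mRNAs of the machinery itself, as the 9 letters TTATTTATT on the sense strand of the longest annotated 3′ untranslated region of each gene. This nonamer was present in 5 of the 40 decay genes and in 7.54% of the 9252 genes tested with such a region. By group, it was found in 4 of the 5 AU-rich element binding genes, in *Cnot6l* among the deadenylases, and in no gene of the other groups. The regions differed in length, with a median of 1822 bases in the AU-rich element binding genes and 1197.5 in genes tested. In the other groups the median ran from 418 (exosome) to 1533 (decapping and 5′ exonuclease), and length was not allowed for. The 3 *Zfp36* genes each held 1 copy, and *Elavl1* held 8, counting overlapping ones, in a region of 4818 bases. A match is a description of the sequence and no measure of binding or decay. The sites are shown because the family that reads such elements differed most in its makeup and carries the element in its own mRNAs. Capitals mark the nonamer with 10 bases on either side, in mm9 and on the minus strand throughout: *Zfp36* at chr7:29161970-29161998, *Zfp36l1* at chr12:81209154-81209182, *Zfp36l2* at chr17:84584254-84584282 and the first site of *Elavl1* at chr8:4285788-4285816.
Zfp36: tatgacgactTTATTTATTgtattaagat
Zfp36l1: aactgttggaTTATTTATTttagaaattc
Zfp36l2: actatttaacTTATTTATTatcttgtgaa
Elavl1: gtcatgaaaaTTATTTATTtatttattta

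Among the nonsense-mediated decay genes, 1 of 7 rose (14.3%, near the 12.2% of all genes tested). Upf3b bridges the exon junction complex, left on mRNA by splicing, to the helicase Upf1. *Upf3b* (NM_026573, mm9 chrX:34631673-34650335, minus strand) reached 12.9 FPKM in the pre-pro-B library, with an interval from 1.14 to 48.8, and 27.9 FPKM in the pro-B library, with an interval from 4.21 to 88.1. The pro-B level was 2.16 times the pre-pro-B level. Its log2 ratio of 1.06 lies just past the limit of 1, and with TPM scaling it was 0.94 and no longer counted. The genes just short of the limit, in either direction, were *Exosc8* (0.88) and *Smg1* (-0.87). *Upf3a*, its autosomal paralog, was 9.08 and 10.0, so *Upf3b* gave 58.7% of the pair's FPKM in pre-pro-B and 73.6% in pro-B cells.

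*Upf3b* is X-linked, and the libraries differ in sex. Of 319 X-linked genes tested, looked at after the *Upf3b* value was known, 47 rose in pro-B cells and 39 fell, which is 14.7% and 12.2%, against 12.2% and 19.1% of all genes tested. Their median log2 ratio was 0.05, beside -0.14 over all genes tested. The nearest genes were within 2-fold: *Rpl39*, a ribosomal protein gene 6.49 kb away, was 186 and 160.4, and *Nkap*, which encodes a transcriptional regulator, was 14.2 and 17.3. The part of sex in the value of *Upf3b* was not tested.

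The promoter of *Upf3b* is shown for comparison with that of *Pan3*, since these genes differed in opposite directions. It is again RefSeq's for GRCm38.p6 and matched mm9 at chrX:34650268-34650567 on the minus strand, with CCCNNGGG and the palindrome CTCGCGAG in capitals.
Upf3b: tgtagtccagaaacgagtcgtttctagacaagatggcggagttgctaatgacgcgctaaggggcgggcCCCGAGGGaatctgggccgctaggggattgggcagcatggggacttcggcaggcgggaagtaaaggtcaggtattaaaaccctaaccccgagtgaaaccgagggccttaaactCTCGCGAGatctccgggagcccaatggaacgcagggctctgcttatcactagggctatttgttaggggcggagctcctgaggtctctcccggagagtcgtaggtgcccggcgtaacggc
CTCGCGAG, which reads the same on both strands, began at position -69 from the start site. It was found in 4 of 42 promoter windows of the decay genes, those of *Upf3a*, *Upf3b*, *Dis3* and a window of *Exosc10*, and in 2.00% of the windows of genes tested. Of these 4 genes, *Upf3b* alone passed 2-fold. Neither promoter shown holds CCGGAAGT, an Ets factor site, or CAGGTG, an E box bound by E proteins. Searched on both strands, CCGGAAGT was in 3 of 42 windows of the decay genes and 8.78% of those of genes tested, and CAGGTG in 4 of 42 and 17.1%. The windows belong to 34 of the 40 genes.

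The remaining genes of nonsense-mediated decay lay within 2-fold. *Smg1*, the kinase that phosphorylates Upf1, was 66.0 in pre-pro-B and 35.7 in pro-B cells, the highest level of the group in both. *Upf1*, the central helicase, was 12.4 and 9.73, and its partner *Upf2* was 21.7 and 20.6. *Smg6*, the endonuclease of the pathway, was 20.2 and 13.2, and *Smg5*, which recruits decay enzymes to phosphorylated Upf1, was 10.9 and 12.6. The group summed to 153 and 129.7 FPKM with a median log2 ratio of -0.07.

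None of the 11 exosome genes passed 2-fold, where 31.3% of all genes tested did. The exosome is a ring of structural subunits that threads RNA to nucleases. The genes fell into a pair of abundant ones and the rest: *Exosc3*, an RNA-binding cap subunit, was 94.3 in pre-pro-B and 136 in pro-B cells, and *Exosc8*, a ring subunit, was 68.9 and 128, while the other 9 lay between 8.37 and 29.1 over both libraries. *Exosc8* had the most positive ratio of the group (0.88) and *Exosc4*, also of the ring, the most negative (-0.50), at 12.3 and 8.37. Subunits that assemble in 1 complex were therefore at unequal transcript levels in both cell types. *Exosc2*, another cap subunit, was 16.5 and 28.9 (log2 ratio 0.77), whereas the ring subunits *Exosc7* (27.1 and 27.9) and *Exosc9* (29.1 and 26.5) differed less. *Exosc5*, likewise of the ring, was 11.8 and 9.99, and *Exosc1*, a cap subunit, was 17.2 and 15.6. The nucleases were within 2-fold too. *Dis3*, the main catalytic subunit, was 14.4 and 20.4, its cytoplasmic paralog *Dis3l* was 12.2 and 10.1, and the nuclear nuclease *Exosc10* was 27.6 and 24.9. The group sum was 332 in pre-pro-B and 436 in pro-B cells, while the median log2 ratio was -0.13, since the difference in the sum came from the abundant pair.

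No decapping or 5′ exonuclease gene passed 2-fold, where 31.3% of all genes tested did. *Dcp2*, the decapping enzyme, was 50.4 in pre-pro-B and 47.5 in pro-B cells. Its activator *Dcp1a* was 21.5 and 19.2, and *Dcp1b*, the paralog of *Dcp1a*, was the lowest of all 40 genes in both libraries at 3.02 and 1.92 (log2 ratio -0.46). *Dcp1a* gave 87.7% of the FPKM of that pair in pre-pro-B and 90.9% in pro-B cells. *Xrn2*, the nuclear 5′ exonuclease that acts in transcription termination, was the highest of the group at 98.9 and 97.0, and *Xrn1*, its cytoplasmic counterpart, was 17.1 and 27.8 (log2 ratio 0.67). The group summed to 191 and 193 FPKM, with a median log2 ratio of -0.09. The FPKM of the nuclear enzyme's transcript was thus 5.79 times that of the cytoplasmic one in pre-pro-B and 3.50 times in pro-B cells.

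**Figure D5:**
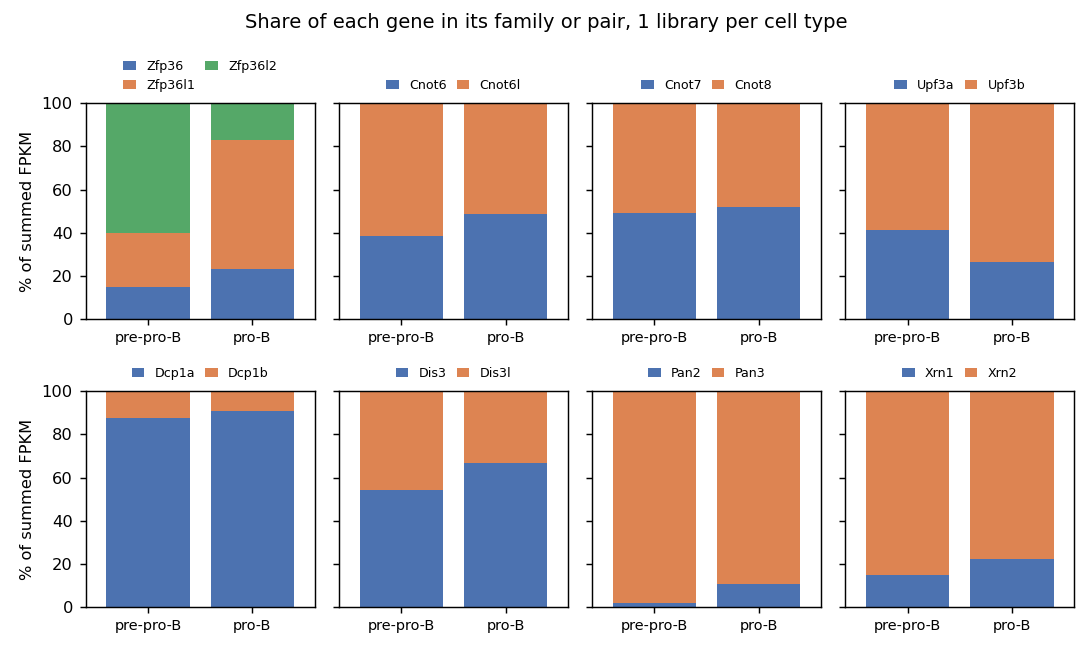
Share (%) of each gene in the summed FPKM of its family, paralog pair or complex, in the pre-pro-B and the pro-B library, 1 library each. The lead passes from Zfp36l2 (60.0%) to Zfp36l1 (60.0%) in the first panel and narrowly from Cnot8 (51.0%) to Cnot7 (51.7%) in the Cnot7 panel. In the Cnot6, Dcp1, Upf3, Dis3, Xrn and Pan2-Pan3 panels the gene with the larger share is the same in both libraries.

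Further genes of the same pathways were examined in lists. Of the 69 genes tested in 5 lists of cofactors, 4 rose and 5 fell, which is 13.0% against 31.3% of all genes tested. Their median log2 ratio was 0.00. Among 15 exosome cofactors, *Pelo*, a ribosome rescue factor, fell from 6.43 to 1.91. Of 15 other deadenylases and Ccr4-Not partners, 2 rose. *Cnot9*, a further Ccr4-Not subunit, rose from 22.7 to 59.2 and *Btg1*, which binds the Cnot7 type of nuclease, from 28.5 to 86.3. Of 13 decapping activators and scavengers, *Ddx6*, a helicase of processing bodies, fell from 198 to 81.1. *Lsm5*, of the Lsm ring, rose from 37.3 to 83.6. None of 12 other nonsense-mediated decay and exon junction genes passed, either way.

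Of 14 other mRNA stability proteins, 1 rose and 3 fell (28.6% in either direction, near the 31.3% of all genes tested). The widest difference of the 5 lists was among them. *Igf2bp3*, an RNA-binding protein typical of fetal tissue, fell from 63.9 to 1.61, and fetal and adult origin cannot be told apart from cell type here. *Zc3h12a*, the endonuclease Regnase-1, fell from 3.53 to 0.571, and *Tut7*, a terminal uridylyltransferase that marks RNAs for decay, from 49.7 to 22.7. *Ybx1*, a cold shock domain protein that packages mRNA, rose from 128 to 335. These lists were chosen with earlier results of these data known, so their counts describe and do not test.

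Several mRNAs that this machinery is known to act on differed between the libraries. Of 18 mRNAs known for AU-rich elements, 10 were tested, of which 1 rose and 6 fell. That is 70.0% in either direction, against 31.3% of all genes tested. The median log2 ratio of the 10 was -1.17, beside -0.14 over all genes tested. *Notch1*, *Tnf*, *Ccnd1* and *Csf2* reached 1 FPKM in the pre-pro-B library alone, so they entered through the library where they were higher. This list too was chosen with earlier results of these data known, so its count and median describe and do not test. *Notch1*, the receptor of T lineage commitment, fell from 29.5 to 0.511, and *Bcl2*, the survival factor, from 172 to 10.4. *Myc* fell from 19.0 to 5.88, the cytokine *Tnf* from 5.36 to 0.239, and the cyclin *Ccnd1* from 1.62 to 0.184. The cytokine *Csf2* was 1.28 in pre-pro-B cells and listed at 0 in pro-B cells. The cyclin *Ccnd3* went the other way, from 50.1 to 577. The mRNAs within 2-fold included *Mcl1* (146 and 108) and *Vegfa* (31.0 and 28.2), and 6 of the 18 were listed at 0 in each library. The nonamer was present in 6 of these 10 genes, among them *Tnf* with 5 copies, *Bcl2* with 2 and *Notch1* with 1, while *Myc*, *Ccnd1*, *Ccnd3* and *Mcl1* held none in the region searched. Genes with and without it were thus found among those that fell. An mRNA level does not separate synthesis from decay, and no decay rate was measured.

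Of 6 mRNAs known as sensitive to nonsense-mediated decay, 2 rose and 1 fell (50.0% in either direction, against 31.3% of all genes tested). *Gadd45a*, a stress-induced growth arrest gene, rose from 5.18 to 31.9, and the stress factor *Atf3* from 0.0106 to 1.29, near the minimum of 1 FPKM. *Gadd45b* fell from 4.60 to 1.40, while *Atf4*, the factor of the integrated stress response, was 104 and 153. Of 11 immediate early genes tested, whose mRNAs are short-lived, 3 rose and 2 fell (45.5% against the same 31.3%). *Jun* rose from 1.30 to 6.80 and the phosphatase *Dusp1* from 0.730 to 4.69, and *Atf3* is the third gene of the list to rise. *Nr4a1* fell from 5.37 to 0.803 and *Ier3* from 5.43 to 1.77. Neither list moved in 1 direction. *Atf3*, *Dusp1* and *Nr4a1* were under 1 FPKM in 1 of the libraries, and both lists were chosen with earlier results of these data known.

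Another class of RNA-binding proteins also had few genes past 2-fold. Of 36 SR protein and hnRNP genes, which govern splicing, 1 rose and 1 fell (5.56%, against 7.5% of the decay genes), and their median absolute log2 ratio was 0.37. *Hnrnpa3* rose from 9.74 to 21.0 and *Ptbp3* fell from 638 to 221. The splicing genes stood higher, at a median percentile of 93.8 in either library, and 27 of 36 had a log2 ratio above 0, against 17 of 40 decay genes. With 1 library per cell type, the difference between the classes could not be tested.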

How the data were processed

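RNA was measured in 1 library of pre-pro-B cells and 1 library of pro-B cells. The authors trimmed the reads, aligned them to mm9 with TopHat (its version differs between the sources) using strand-specific settings, and estimated FPKM for each RefSeq transcript with Cuffdiff 2.1.1. The deposited FPKM table gives each value with a 95% interval and a status. A further deposited table holds the authors' own comparison of the 2 libraries and was not used, nor were its 2 per-sample columns.

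The 26968 protein-coding transcripts were kept, of which 26555 matched a gene name in a RefSeq table of GRCm38.p6. FPKM were summed per gene, genes with a sum of at least 1 in a library were tested (10528), and the log2 ratio used a pseudocount of 1, which understates the differences of low genes. A difference of at least 2-fold was counted. The 8 decay genes whose deposited locus also holds another gene include none that passed 2-fold. All 59 transcripts of the decay genes had the status OK. Positions of the decay genes and 3′ untranslated regions are those of GENCODE M1 on mm9. Neighbours were placed by the loci of the deposited table, some of which span several genes, so their distances and midpoints are approximate. The code for the fold counts was run on simulated data of 7917 genes. It recovered 200 of 200 genes changed 4-fold and counted 0 others. The changes were set without noise in genes well above the limit of 1 FPKM, and the other genes barely varied. That outcome was fixed in advance, so it checks the code and not the reliability of the counts.

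The members, lists, motifs and alternatives were chosen with earlier results of these data known. By rule, values were given for the genes past 2-fold, for the highest, lowest and most different gene of each group, for those nearest to the limit and for those whose main transcript differed. The other decay genes were named as members, and Atf4, Mcl1 and Vegfa as examples after their values were seen. The alternatives were other pseudocounts, other filters, TPM and median-ratio scaling, the most abundant transcript, rows marked as duplicates or without the status OK left out, and a 1.5-fold limit. Python 3.11.15, numpy 2.4.6, pandas 2.3.3 and matplotlib 3.10.9 were used.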

Additional observations from a re-analysis of the deposited data

How the results depend on the processing

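Pan3 and Zfp36l2 fell in pro-B cells under each of the 9 alternatives that gave them a log2 ratio, from -2.34 to -2.13 and from -2.72 to -2.52. The number of decay genes that rose was 1 under each of these except TPM scaling, where it was 0, since the log2 ratio of Upf3b ran from 0.94 to 1.14. Pan3, Zfp36l2 and Upf3b each have 1 transcript with the status OK and an FPKM above 1 in both libraries. Only the pseudocount and scaling settings could therefore change their ratios, and the other alternatives returned the same values. At 1.5-fold, 5 decay genes rose and 5 fell, and 2114 of all genes tested rose and 3136 fell. With an FPKM of at least 1 required in both libraries, 998 of 8852 genes tested fell, against 2013 of 10528. That setting leaves out every gene under 1 FPKM in either library. Taking the main transcript by FPKM times length instead of FPKM, 1 decay gene, Cnot4, changed its main transcript between the libraries, against 0. With the most abundant transcript in place of the sum, the log2 ratio of Cnot4 was -0.07. No direction of a decay gene past 2-fold turned under an alternative. Leaving out a library was not possible with 1 per cell type. No paired analysis was possible because each cell type has 1 library. The FPKM carry no counts, so depth limits the low genes to an extent that is unknown here.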
